A study of Mus musculus with 18 samples.

Results

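Plasminogen activators, the urokinase receptor and 4 serpins were examined in bone marrow mesenchymal stem cells (MSCs) from mouse. The members were 7 of the 27179 genes in the table of normalized counts, namely Plat, Plau, Plaur, Serpine2, Serpinb2, Serpinf2 and Serpinf1. They were chosen by their levels in these same 18 libraries, that is, by the differences among the groups described here, so their values are given as a description and carry no test. Of the 7 members, 6 averaged 10 normalized counts or more across the 18 libraries and so entered the fit of 14353 genes, and Serpinf2 did not.

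The RNA came from primary cells of C57BL6 mice, cultured in alpha-MEM with 20% FBS. The Young group was 6 libraries of untreated cells from mice aged 6 weeks, taken at day 7. The Old group was 6 libraries of cells from mice aged 18 to 24 months, cultured alone for 7 days. The Rejuvenated Old group was 6 libraries of old cells that had shared medium with young cells for 7 days. A Transwell membrane with 0.4 µm pores kept the old and young cells apart. Both kinds of old culture were set up with 100000 cells. The study's methods gave the donors as male, the passages as P2 to P5, and a different expansion medium from the one in the labels. The labels call the replicates biological without saying which came from separate animals, so the p-values below measure the spread between these libraries. No library of old cells cultured beside other old cells was used here, so the effect of young cells and that of a second culture in the well cannot be told apart.

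Between 22936251 and 25648769 reads fell on genes in the Young libraries, between 24965971 and 29559194 in the Old, and between 26018046 and 29155223 in the Rejuvenated Old. A normalized count is the read count of a gene divided by the size factor of its library, and in these libraries 1 read was worth close to 1 normalized count.

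The stromal label was checked against 12 marker genes, whose levels summed to 189889 ± 4345 normalized counts in the Young libraries, 380579 ± 7046 in the Old and 397945 ± 16866 in the Rejuvenated Old (mean ± SD, n = 6 each). The most abundant was Col1a1 in Young, at 99171, and Cxcl12 in the other groups, at 197374 and 238458, where Young had 9227, so the difference of both sums from that of Young lay mostly in this 1 gene. Thy1, a common stromal surface marker, stood at 198 in Young, and no Old library had more than 3 reads of it. Eng stood at 163 in Young against 7340.3 in Old. Of the 12 stromal markers, 4 were called higher and 8 lower in Young than in Old (adjusted p under 0.05), where 41.6% of all tested genes were called higher and 44.1% lower. In co-culture against Old, 3 of the 12 were called higher and 5 lower, where 21.0% of all tested genes were called higher and 20.6% lower. Among these, and chosen after their values were seen, Ly6a (Sca-1) was at 6135 ± 737 in Old and 12899.5 ± 1356 in the Rejuvenated Old group (log2 fold change 1.07, adjusted p = 1.67e-08), and Col1a1 was at 109095 ± 4989 and 81975 ± 4141 (-0.41, adjusted p = 3.05e-07).

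Markers of other cell types also moved with the groups. The 16 macrophage and other myeloid markers summed to 1002 ± 44.7 in Young, 18472 ± 1400 in Old and 18200 ± 1570 in the Rejuvenated Old group. In Young, 8 of the 16 were at 3 reads or fewer in each library (Ptprc, Adgre1, Itgam, Tyrobp, C1qa, C1qb, C1qc and Cx3cr1), and the most abundant was Cd68 at 435. In Old and Rejuvenated Old the most abundant was Lyz2, at 10154 and 9769. Aif1 went against the sum and is named after its values were seen. Its mean was 23.1 in Young against 15.0 in Old (log2 fold change 0.70, adjusted p = 0.00943). Of 15 myeloid markers tested, 14 were called lower and 1 higher in Young than in Old, beside 44.1% and 41.6% of all tested genes. The 8 endothelial markers summed to 7179 ± 141 in Young, of which Cd34 made up 7006, and to 178 ± 18.2 and 266 ± 143 in the other groups, where Vwf led at 127 and 149.9. Vwf went against the sum, at 51.8 in Young (log2 fold change -1.29 for Young against Old, adjusted p = 5.25e-09), and of the 4 endothelial markers tested 3 were called higher and 1 lower in Young than in Old, beside 41.6% and 44.1% of all tested genes. Of these 4, 1 was called higher and 1 lower in Rejuvenated Old than in Old, beside 21.0% and 20.6% of all tested genes. Both are named after their values were seen. Cd34 was called higher (log2 fold change 1.16, adjusted p = 0.0271), where Rejuvenated Old 1 held 402 and the other 5 libraries 24.2 to 41.9. Kdr was called lower, at 9.12 in Old and 4.32 in Rejuvenated Old (-0.91, adjusted p = 0.0200). The median of the Rejuvenated Old sums was 213, and Rejuvenated Old 1 reached 556. The 6 osteoclast markers summed to 167 ± 19.0, 4446 ± 104 and 4302 ± 365, of which Ctsk made up 130.04, 4428 and 4283. Oscar went the other way, at 25.8, 15.2 and 14.4 (0.78 for Young against Old, adjusted p = 0.00457). Of the 2 osteoclast markers tested, 1 was thus called higher and 1 lower in Young than in Old, beside 41.6% and 44.1% of all tested genes. Acp5, not tested, was at 6.74, 0.492 and 1.45, and Calcr and Dcstamp were at 3 reads or fewer in each of the 18 libraries. The 4 hepatocyte genes, which were not expected, summed to 3.11, 1.85 and 2.23. The part of these cell types in the differences between Young and the other groups was not tested, and a different share of cells and a different level per cell cannot be told apart in bulk RNA.

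Ddx3y and Eif2s3y, genes of the Y chromosome that were chosen after their values were seen, also separated Young from the rest. Ddx3y had a median of 0 in Young (0 to 2.06), 1781 in Old (1591 to 1871) and 1719 in the Rejuvenated Old group (1486 to 1950), and Eif2s3y had 0, 2069 and 2039. The Young values disagree with the male donors given in the study's methods, and the cause was not tested. The tested genes of some chromosomes were shifted as a whole between Young and Old. The median log2 fold change of Young against Old was -0.69 over 800 genes of chromosome 1, 0.61 over 1032 genes of chromosome 7 and -0.75 over 446 genes of chromosome 16. Between Rejuvenated Old and Old the same chromosomes had medians of -0.01, 0.06 and -0.01. The 13 tested genes of the mitochondrial genome had a median of -0.75 for Young against Old and 0.27 for Rejuvenated Old against Old, the latter beyond the -0.04 to 0.06 of the other chromosomes. Age, the Y-linked difference and the chromosome shifts cannot be told apart in the comparison of Young with Old, and the chromosome median is given beside the members it touches.

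**Figure D1:**
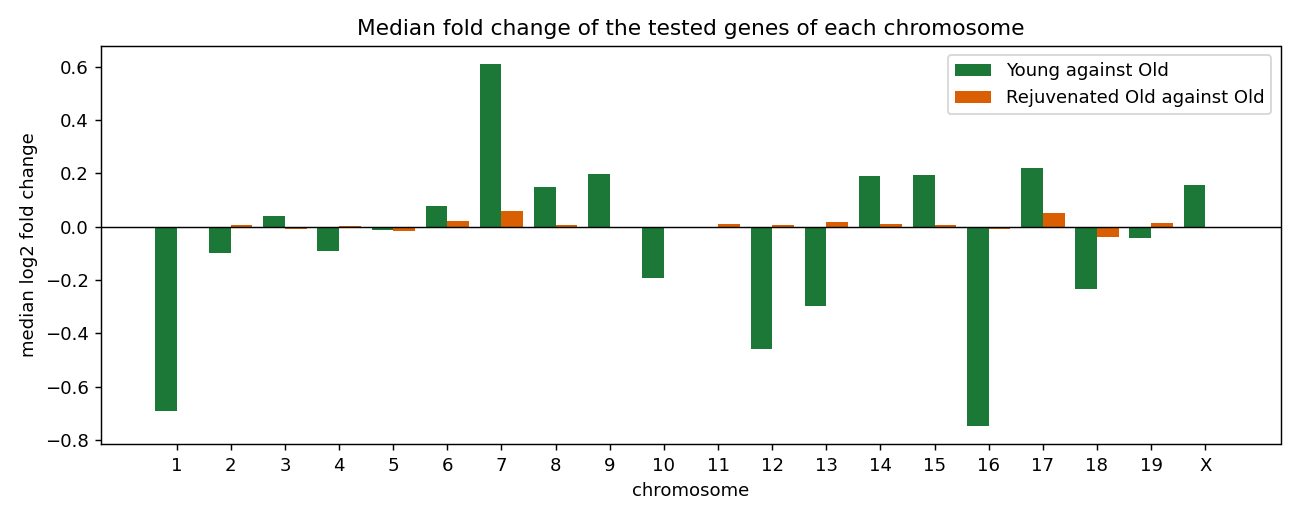
Median log2 fold change of the tested genes of each chromosome, for Young against Old (green) and Rejuvenated Old against Old (orange); the Y chromosome and the mitochondrial genome are left out. Chromosomes 1, 7 and 16 stand at -0.69, 0.61 and -0.75 for Young against Old, while the same chromosomes are at -0.01, 0.06 and -0.01 for Rejuvenated Old against Old.

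Rejuvenated Old 1 stood apart from the other libraries, and Rejuvenated Old 5 came next, just above the rest. The root mean square deviation from the group mean, on the log2 scale over the genes tested, was 0.31 in Rejuvenated Old 1 and 0.25 in Rejuvenated Old 5, against 0.20 to 0.24 in the other 16 libraries. Rejuvenated Old 1 also held 402 normalized counts of Cd34, where its 5 fellow libraries held 24.2 to 41.9 and Young averaged 7006. Thy1 was at 21.6 in it and at 0.951 or less in the other 5 libraries of that group. The part of this library in the group means was not tested beyond leaving it out, and the fold changes without both libraries are given below.

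Plasminogen is a circulating zymogen that becomes the broad protease plasmin when tissue plasminogen activator (Plat) or urokinase (Plau) cleaves it. Urokinase works at the cell surface, bound to its receptor Plaur, and serpins stop these proteases by acting as suicide substrates. Plasmin dissolves fibrin, cleaves matrix proteins and releases growth factors held in the matrix, and stromal cells are among its local regulators.

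The activators were both higher in Young than in Old, and they parted in co-culture. Plat, tissue plasminogen activator, lies on chromosome 8 (chr8:22757722-22782848, plus strand, GRCm38.p6) and has 14 exons in its RefSeq-matched transcript. Plat ranged from 4450 to 4998 normalized counts in Young with a median of 4661, from 1863 to 2013 in Old with a median of 1919, and from 989 to 1260 in Rejuvenated Old with a median of 1096. The 3 groups did not overlap, and Rejuvenated Old was the lowest. The means were 4691 ± 217, 1936 ± 61.1 and 1114 ± 123 (SD, n = 6 each). The log2 fold change of Plat was 1.28 for Young against Old and -0.80 for Rejuvenated Old against Old, each with an SE of 0.05, which is 2.42 times the Old mean and 0.575 times the Old mean. Rejuvenated Old thus lay on the far side of Old from Young, at -63.0% of the log2 distance from Old to Young (-75.9% to -48.5% over its libraries).

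Plau, urokinase, lies on chromosome 14 (chr14:20836662-20843388, plus strand) with 11 exons. Its range was 2397 to 2681 in Young (median 2531), 634 to 695 in Old (median 683) and 803 to 934 in Rejuvenated Old (median 897). These groups did not overlap either, and here Old was the lowest. The means were 2530 ± 106, 674 ± 22.9 and 889 ± 45.9 (SD, n = 6 each). The log2 fold change of Plau was 1.91 for Young against Old and 0.40 for Rejuvenated Old against Old, each with an SE of 0.04. Co-cultured cells stood at 20.8% of the log2 distance from Old to Young (13.2% to 24.7%), and their mean was 0.351 times that of Young.

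The balance of the activators therefore differed in each group. Per kilobase of transcript, the ratio of Plat to Plau within a library averaged 1.72 ± 0.108 over the Young libraries, 2.66 ± 0.0919 over the Old and 1.16 ± 0.121 over the Rejuvenated Old (SD, n = 6 each). Its ranges were 1.62 to 1.88, 2.57 to 2.77 and 1.00 to 1.29, with no overlap. Plat was the more abundant activator per kilobase in each Young and Old library. In Rejuvenated Old the lowest ratio, 1.00, was close to equal levels.

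**Figure D2:**
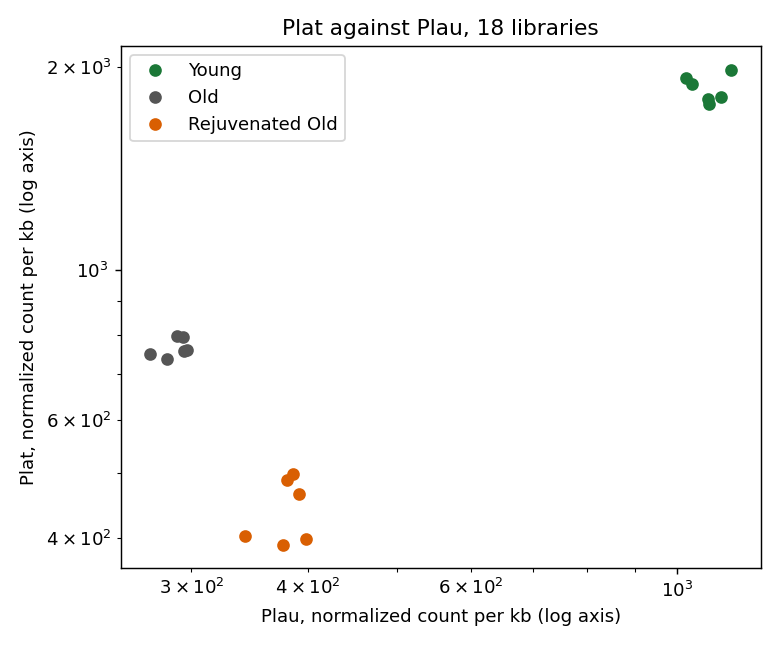
Plat (vertical) against Plau (horizontal), both in normalized counts per kilobase of transcript on log axes, with 1 point for each of the 18 libraries. Young libraries lie at the upper right, Old libraries at the lower left with the lowest Plau, and Rejuvenated Old libraries below them with lower Plat and higher Plau; the mean Plat to Plau ratios are 1.72, 2.66 and 1.16.

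Plaur, the GPI-anchored urokinase receptor, lies on chromosome 7 (chr7:24460937-24475970, plus strand) with 7 exons. Plaur ranged from 485 to 584 in Young (median 538), from 529 to 573 in Old (median 550.01) and from 604 to 711 in Rejuvenated Old (median 664). The Young and Old libraries overlapped, and all 6 Rejuvenated Old libraries were above both. The means were 537 ± 34.7, 551 ± 19.7 and 659 ± 36.3 (SD, n = 6 each). The log2 fold change was -0.04 for Young against Old and 0.26 for Rejuvenated Old against Old (SE 0.05 each). Plaur lies on a chromosome whose median was 0.61 for Young against Old, and less that median its fold change was -0.65. Less the median of the 248 other tested genes within 10 Mb it was -0.40. Per kilobase, the ratio of Plau to Plaur averaged 3.04 ± 0.219 over the Young libraries, 0.788 ± 0.0349 over the Old and 0.868 ± 0.0453 over the Rejuvenated Old, so the ligand exceeded its receptor in Young and not in either old group.

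Of the members, the serpins with activators among their targets, Serpine2 and Serpinb2, were both lower in Young and in co-culture than in Old. Serpine2, protease nexin-1, inhibits thrombin, urokinase and tissue plasminogen activator at the cell surface. It lies on chromosome 1 (chr1:79794317-79858665, minus strand) with 9 exons. Serpine2 ranged from 13109 to 16166 in Young (median 15467), from 24152 to 28663 in Old (median 26384) and from 14154 to 18316 in Rejuvenated Old (median 16367). All Old libraries were above those of both other groups, which overlapped each other. The means were 15188 ± 1167, 26519 ± 1720 and 16487 ± 1579 (SD, n = 6 each). The log2 fold change was -0.81 for Young against Old and -0.69 for Rejuvenated Old against Old (SE 0.06 each). Less the chromosome 1 median, these were -0.11 and -0.68, so for Young against Old the member lay near the middle of the genes of its chromosome. Less the median of the 113 other tested genes within 10 Mb they were -0.28 and -0.66. Rejuvenated Old stood at 85.5% of the log2 distance from Old to Young (66.0% to 112%). This share takes the distance of -0.81 as it stands. Less either median, the co-culture change (-0.68 or -0.66) was larger than that distance (-0.11 or -0.28), so the share does not hold there.

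Serpinb2, plasminogen activator inhibitor type 2, targets urokinase and is known as a gene induced in activated macrophages. It lies on chromosome 1 (chr1:107500892-107525600, plus strand) with 8 exons in its RefSeq-matched transcript. Its range was 4.05 to 9.59 in Young (median 7.18), 70.9 to 134 in Old (median 91.1) and 10.2 to 32.3 in Rejuvenated Old (median 20.8). The groups did not overlap, and the Young value rested on 4 to 9 reads in a library, so its level there is known only roughly. The means were 7.04 ± 2.26, 98.3 ± 28.5 and 21.2 ± 8.19 (SD, n = 6 each). Fold changes here are on the scale of log2(normalized count + 1), so those of genes with few reads come out too small. That of Serpinb2 was -3.63 for Young against Old and -2.20 for Rejuvenated Old against Old (SE 0.26 each). Less the chromosome 1 median these were -2.94 and -2.20. Serpinb2 sits in a run of 12 Serpinb genes over 747804 bases, of which Serpinb2 and Serpinb8 alone had a mean of at least 10. The summed myeloid markers differed between Old and Rejuvenated Old by less than the spread between libraries (18472 ± 1400 and 18200 ± 1570), a sum of which Lyz2 made up the most. Of the 15 myeloid markers tested in that comparison, 1 was called higher and 1 lower, beside 21.0% and 20.6% of all tested genes, and both are named after their values were seen. Itgam was at 275 ± 27.3 in Old and 385 ± 53.1 in co-culture (log2 fold change 0.48, adjusted p = 0.00548), and Cd68 was at 1229 ± 112 and 983 ± 51.8 with no overlap (-0.32, adjusted p = 0.000102). Cx3cr1, which had too few reads for the test, was at 17.0 ± 3.59 and 7.32 ± 4.35. The part of myeloid cells in the Serpinb2 values was not tested.

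The sequences around the starts of Serpinb2, Serpine2 and Plaur are shown because the first pair moved together and Plaur moved the other way in co-culture. They come from a promoter table made from RefSeq on GRCm38.p6, in which 5 of the 7 members were matched to 6 sequences, and run from 250 bases before an annotated start to 50 bases after it, 5′ to 3′. Capitals mark matches on either strand to TGANTCA (the AP-1 motif), GGGCGG (the Sp1 GC box, whose matches can overlap each other), TATAAA (the TATA motif) and ACGTG (the core of the hypoxia response motif).
Serpinb2, chr1:107511173-107511472, plus strand: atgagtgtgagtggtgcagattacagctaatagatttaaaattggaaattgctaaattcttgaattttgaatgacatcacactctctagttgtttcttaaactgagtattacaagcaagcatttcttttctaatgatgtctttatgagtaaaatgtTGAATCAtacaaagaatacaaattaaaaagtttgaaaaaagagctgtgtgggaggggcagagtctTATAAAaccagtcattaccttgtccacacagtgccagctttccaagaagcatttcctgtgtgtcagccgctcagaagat
Serpine2, chr1:79858616-79858915, minus strand: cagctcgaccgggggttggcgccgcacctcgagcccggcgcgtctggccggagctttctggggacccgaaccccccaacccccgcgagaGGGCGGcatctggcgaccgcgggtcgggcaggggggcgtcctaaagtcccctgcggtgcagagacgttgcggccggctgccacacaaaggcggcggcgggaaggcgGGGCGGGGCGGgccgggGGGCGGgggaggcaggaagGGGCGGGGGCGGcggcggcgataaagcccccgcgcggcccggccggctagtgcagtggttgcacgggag
Plaur, chr7:24462233-24462532, plus strand: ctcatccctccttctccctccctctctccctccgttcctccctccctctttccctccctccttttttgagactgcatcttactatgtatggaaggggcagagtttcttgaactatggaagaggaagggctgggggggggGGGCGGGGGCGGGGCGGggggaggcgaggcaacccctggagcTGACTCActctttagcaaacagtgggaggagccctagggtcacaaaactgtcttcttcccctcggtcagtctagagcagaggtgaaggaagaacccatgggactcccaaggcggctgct
The Serpinb2 window held 1 AP-1 match and 1 TATA match with a GC content of 35.3%, and the window of its second annotated start, which overlaps the first, held the same matches. The Serpine2 window held 6 GC boxes and none of the other motifs, at a GC content of 77.7%. The Plaur window held 1 AP-1 match and 3 GC boxes at 59.3%. Of 32851 promoters of 300 bases, 7.81% held an AP-1 match, 35.7% a GC box, 13.6% a TATA match and 19.6% the hypoxia core. The Serpinf1 window held 1 match to the hypoxia core, and the Serpinf2 window held no match to the 4 motifs. A match describes the letters and is not a binding site.

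Serpinf2 and Serpinf1 are neighbours on chromosome 11, with 9112 bases between them, both on the minus strand. Serpinf2 encodes alpha-2-antiplasmin, the main fast inhibitor of plasmin, made mostly by the liver. It lies at chr11:75431736-75439501 and has 10 exons. Its range was 2.06 to 10.1 in Young (median 7.34), 6.02 to 9.85 in Old (median 8.61) and 3.78 to 22.2 in Rejuvenated Old (median 9.84). All 3 groups overlapped. The means were 6.69 ± 3.50, 8.17 ± 1.33 and 12.1 ± 7.33 (SD, n = 6 each), on 2 to 23 reads a library, and 2 Young libraries had 3 reads or fewer. A difference between the groups was not detectable at this depth.

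Serpinf1 encodes pigment epithelium-derived factor, a secreted serpin that is known not to inhibit proteases, so the name inhibitory serpin does not hold for it. It lies at chr11:75410029-75422623 and has 8 exons. Its range was 22583 to 23963 in Young (median 23189), 18439 to 20904 in Old (median 19295) and 21166 to 23550 in Rejuvenated Old (median 21990). All Old libraries were below those of the other groups, which overlapped each other. The means were 23161 ± 482, 19336 ± 930 and 22225 ± 851 (SD, n = 6 each). The log2 fold change was 0.26 for Young against Old and 0.20 for Rejuvenated Old against Old (SE 0.03 each), the smallest differences among the members whose groups separated in both comparisons. Rejuvenated Old stood at 77.0% of the log2 distance from Old to Young (50.4% to 109%).

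**Figure D3:**
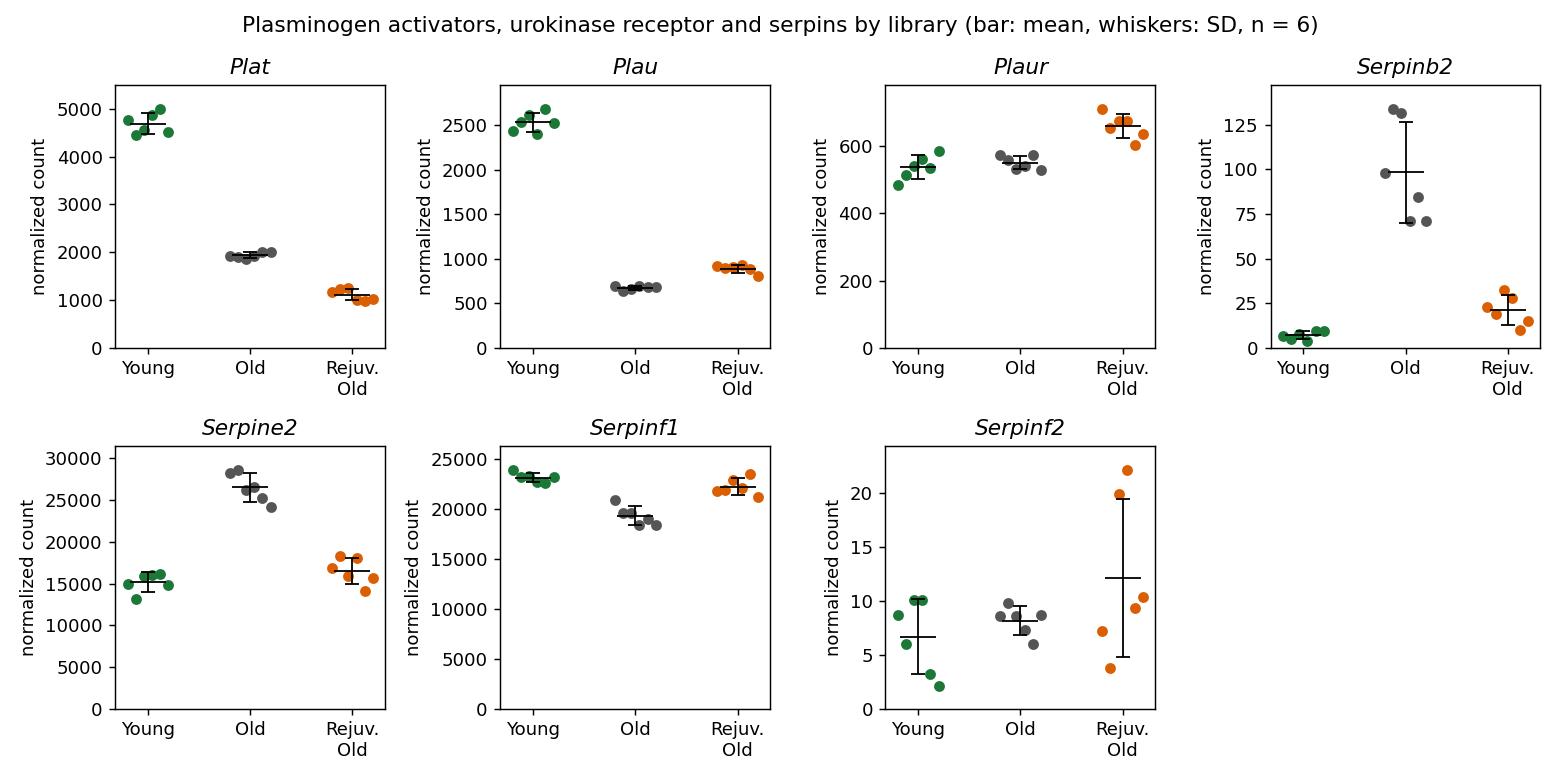
Normalized counts of the 7 members in each library, with 1 panel per gene, axes from 0, points for libraries, bars for group means and whiskers for the SD (n = 6). Plat and Plau are highest in Young, Serpinb2 and Serpine2 are highest in Old, and Plaur is highest in Rejuvenated Old, with means of 537, 551 and 659.

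Rejuvenated Old was also set against Young, a comparison that shares libraries with both others. The log2 fold changes were -2.08 for Plat, -1.51 for Plau, 0.29 for Plaur, 1.43 for Serpinb2, 0.12 for Serpine2 and -0.06 for Serpinf1. Less the chromosome median, Plaur was at 0.86, Serpinb2 at 0.73 and Serpine2 at -0.58, so Serpine2 changed its direction. Without Rejuvenated Old 1 and 5 together, a setting chosen after seeing the data, the fold changes against Old were -0.78 for Plat, 0.39 for Plau, 0.26 for Plaur, -2.02 for Serpinb2, -0.64 for Serpine2 and 0.19 for Serpinf1.

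**Figure D4:**
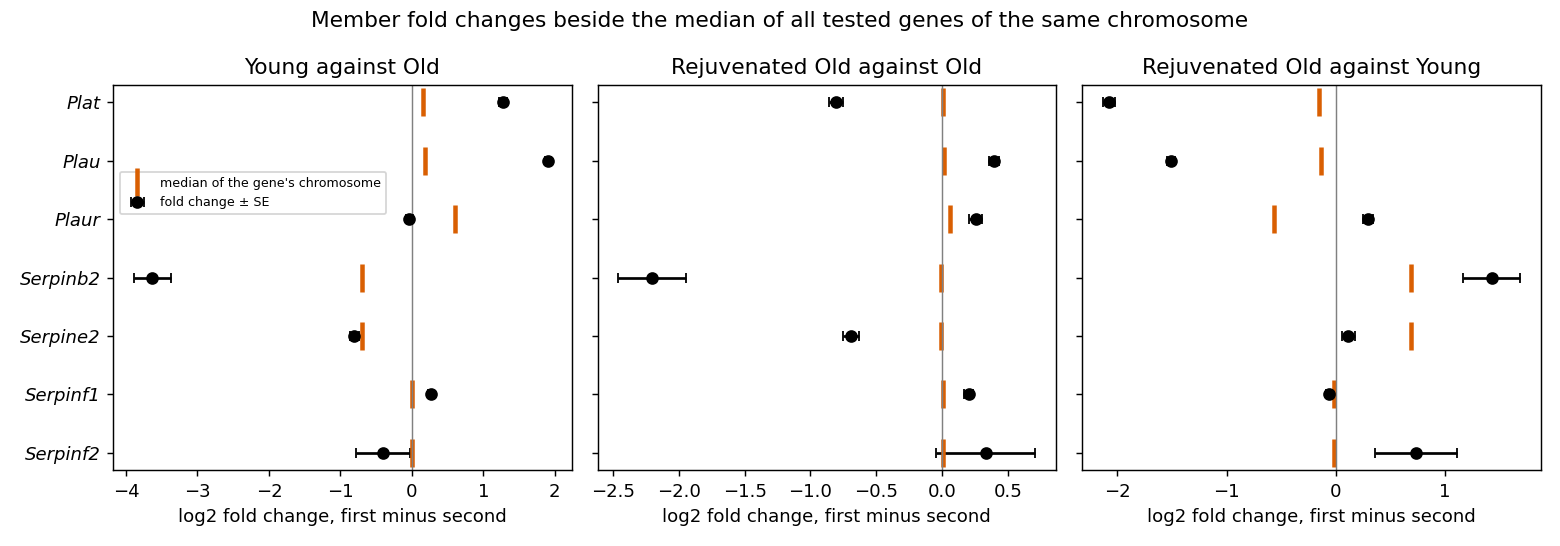
Log2 fold change of each member with its SE (black) in the 3 comparisons, beside the median of all tested genes of its chromosome (orange); Serpinf2 comes from the fit without a filter. For Young against Old the value of Serpine2 (-0.81) lies close to its chromosome's median (-0.69), and for Rejuvenated Old against Old it (-0.69) does not (-0.01).

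Of the 6 members tested, 3 were called higher (Plat, Plau and Serpinf1) and 2 lower (Serpinb2 and Serpine2) in Young than in Old, where 41.6% of all tested genes were called higher and 44.1% lower. For Rejuvenated Old against Old, 3 were called higher (Plau, Plaur and Serpinf1) and 3 lower, beside 21.0% and 20.6% of all genes. For Rejuvenated Old against Young, 2 were called higher (Plaur and Serpinb2) and 2 lower (Plat and Plau), beside 44.1% and 41.5%. The libraries did not overlap for 5, 6 and 4 members in the same 3 comparisons, beside 73.9%, 22.0% and 70.5% of all genes. Nothing is read from these counts, since these contrasts chose the members.

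The order of the members was compared per kilobase of transcript. In Young it was Serpinf1 (12643 normalized counts per kb), Serpine2 (6872), Plat (1858), Plau (1080), Plaur (357), Serpinb2 (3.53) and Serpinf2 (3.05), and Serpinb2 and Serpinf2 alone overlapped as neighbours. In Old, Serpine2 came first at 11999 ± 778, and its libraries overlapped with those of Serpinf1 at 10555 ± 508. Plat followed at 767, Plaur at 366 was above Plau at 288, and Serpinb2 (49.2) and Serpinf2 (3.73) came last. In Rejuvenated Old the order was Serpinf1 (12132), Serpine2 (7460), Plat (441), Plaur (438), Plau (379), Serpinb2 (10.6) and Serpinf2 (5.54), where Plat overlapped with Plaur and Serpinb2 with Serpinf2. Plat and Plau summed to 0.429 ± 0.0273 of Serpine2 per kb in Young, 0.0883 ± 0.00772 in Old and 0.111 ± 0.00972 in the Rejuvenated Old group.

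The genes with the most similar pattern over the 18 libraries were found by the root mean square difference of centred log2 values. Nearest to Plat were Pcdh18 (0.15), Ltbp1 (0.15) and Abtb2 (0.16). Nearest to Plau were Mesd (0.07), Atf5 (0.08) and Pdcd2 (0.10), and nearest to Plaur were Zfp131 (0.06), Nop58 (0.07) and Nsun2 (0.07). Serpine2 was closest to Enc1 (0.10), Rai14 (0.10) and Amot (0.11), and Serpinf1 to Calm2, Ilf2 and Ywhaz (0.05 each). Serpinb2 had no close match, with Adra2a, Abca8a and Cpz at 0.57, 0.58 and 0.59.

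The rest of the plasminogen system was followed through a list of 47 other genes, of which 32 were tested. In Young against Old 12 of the 32 were called higher, 19 lower and 1 was not called, beside 41.6% of all tested genes called higher and 44.1% lower. Their median log2 fold change was -0.39, beside -0.02 over all genes tested. In Rejuvenated Old against Old 9 were called higher and 10 lower, beside 21.0% and 20.6% of all genes, with a median of -0.03, beside 0.01. In Rejuvenated Old against Young 17 were called higher and 9 lower, beside 44.1% and 41.5%, with a median of 0.34, beside 0.03, and less the chromosome medians that of the list was 0.20. The counts by role that follow stand against the same shares of all genes, and nothing is read from them. Plg, the substrate of both activators, was among the genes not tested, as were F11, F12 and Habp2.

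Among 4 tested zymogens and activating proteases, 3 were lower in Young than in Old. Between Rejuvenated Old and Old 0 of the 4 were called by limma, 0 had an unadjusted p under 0.05, and edgeR and DESeq2 called 0. Habp2 and F12, not tested, are named after their values were seen. Habp2 was at 11.2 (8.86 to 12.9) in Old, 4.95 (2.83 to 7.61) in Rejuvenated Old and 0 in Young. F12 went the other way in co-culture, from 1.70 to 2.24. Among 8 tested partners of plasminogen and the urokinase receptor, 4 rose and 4 fell in Young against Old. In Rejuvenated Old against Old 4 rose and 3 fell. Eno1, a glycolytic enzyme that also binds plasminogen at the cell surface, rose in co-culture from 11016 ± 386 to 18463 ± 943, a log2 fold change of 0.74 (SE 0.04, adjusted p = 2.6e-13). Anxa2, a plasminogen receptor and the most abundant of these partners, was at 36780.4 in Young, 32044 in Old and 36103 in the Rejuvenated Old group, with a log2 fold change of 0.17 in co-culture (adjusted p = 0.0017). Its value for Young against Old, 0.20 (adjusted p = 9.7e-05), was -0.0014 less the median of its chromosome. Itgam, an integrin chain that binds Plaur and is also a myeloid marker, had 3 reads or fewer in each Young library, 275 ± 27.3 normalized counts in Old and 385 ± 53.1 in Rejuvenated Old (log2 fold change 0.48, adjusted p = 0.0055).

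Of 8 clearance and endocytic receptors, 4 rose and 4 fell in Young against Old, and 2 rose and 4 fell in co-culture. Lrp1, which clears complexes of activator and serpin, was the most abundant gene of the list. It fell from 87777 ± 3107 in Old to 65278 ± 3647 in Rejuvenated Old, a log2 fold change of -0.43 (adjusted p = 4.7e-08), and was at 61979 in Young. Mrc2, which binds the urokinase receptor and takes up collagen, fell by 0.48 on the log2 scale in co-culture (adjusted p = 1.3e-09). Igf2r also fell, with a log2 fold change of -0.66 (adjusted p = 2.7e-08). Vldlr, which takes up the complexes too, stood at 5301 ± 379 in Young, 141 ± 29.7 in Old and 487 ± 105 in the Rejuvenated Old group, a log2 fold change of 5.25 for Young against Old and 1.79 in co-culture. Its value in Rejuvenated Old 1 was 689 against 390 to 476 in the other 5 libraries, and without that library the co-culture value was 1.69. Sorl1 was at 3.13 in Young against 149 in Old and 143 in Rejuvenated Old.

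Among 4 tested inhibitors other than serpins, 2 rose and 2 fell in Young against Old. Tfpi, which inhibits the tissue factor pathway, rose in co-culture from a mean of 51.4 (35.5 to 63.6) to 76.5 (66.6 to 96.2; log2 fold change 0.58, adjusted p = 0.0016). Tfpi2 was at 5.51 in Young and 45.4 in Old. Spint1 and Spint2, Kunitz inhibitors of membrane serine proteases, differed in opposite directions. Spint1 had 3 reads or fewer in each Young library against 38.8 normalized counts in Old, and Spint2 was at 72.1 in Young against 2.61 in Old.

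Among 5 tested genes of thrombin, tissue factor and their receptors, 1 rose and 4 fell in Young against Old, and 2 rose in co-culture. Thbd, thrombomodulin, which turns thrombin toward protein C, ranged from 451 to 584 in Young, from 8442 to 9791 in Old and from 18249 to 22642 in Rejuvenated Old. Its log2 fold change was -4.16 for Young against Old (adjusted p = 2.3e-25) and 1.11 in co-culture (adjusted p = 5.8e-13), so co-cultured cells lay farther from Young than Old cells did. Among the 3 tested substrates and released factors, each fell in co-culture. Hgf, hepatocyte growth factor, which is activated by related proteases, was at 167 ± 29.9 in Young, 3135 ± 133 in Old and 2540 ± 302 in the Rejuvenated Old group (co-culture log2 fold change -0.31, adjusted p = 0.0094). Ltbp1, which holds latent TGF-beta in the matrix, was at 9059 ± 96.4, 4377 ± 272 and 2577 ± 319, with log2 fold changes of 1.05 and -0.77.

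The serpin family list held 60 other genes, of which 26 were tested. In Young against Old 8 were called higher and 14 lower, beside 41.6% and 44.1% of all tested genes, with a median of -0.49 beside -0.02 over all genes. In co-culture 8 were called higher and 6 lower, beside 21.0% and 20.6%, with a median of -0.14 beside 0.01. In Rejuvenated Old against Young 16 were called higher and 7 lower, beside 44.1% and 41.5%, with a median of 0.67 beside 0.03. Reads of the Serpina3, Serpinb1, Serpinb6 and Serpinb9 clusters can be split between near-identical copies, so values of single genes there are uncertain.

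Serping1, the C1 inhibitor, which blocks complement and contact proteases, was at 1637 ± 49.7 in Young, 1472 ± 52.2 in Old and 4196 ± 397 in the Rejuvenated Old group. It rose in co-culture by a log2 fold change of 1.51 (SE 0.05, adjusted p = 2.5e-16), with all 6 libraries above those of Old. Serpinb6b, Serpinb1a and Serpina3g rose too, with log2 fold changes of 1.36, 0.77 and 0.87. In Young, Old and Rejuvenated Old, Serpinb6b was at 22.5, 170 and 437, Serpinb1a at 291, 940 and 1605, and Serpina3g at 132, 158 and 289. The log2 fold changes for Young against Old were -2.88, -1.70 and -0.27, so co-cultured cells lay farther from Young than Old cells did. Serpinb8, in the same chromosome 1 run as Serpinb2, fell from 146 ± 18.7 to 90.3 ± 13.8 (log2 fold change -0.69, adjusted p = 2.3e-05), and was at 71.5 in Young. Its log2 fold change for Young against Old was -1.01. Less the chromosome 1 median that value was -0.32, and the one in co-culture was -0.68. Serpinh1, the collagen chaperone HSP47, was at 19741 in Young, 19755 in Old and 21388 in the Rejuvenated Old group. Serpinb6a was at 7295 in Young, 12881 in Old and 12677 in the Rejuvenated Old group.

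Between Young and Old the largest log2 fold changes among the tested serpins were those of Serpina3h, Serpina3i, Serpina3n and Serpina9 on chromosome 12. Serpina3h was at 772 ± 60.4 in Young, 12.6 ± 2.15 in Old and 12.4 ± 8.41 in the Rejuvenated Old group, where library 1 held 28.8 and the other 5 held 6.52 to 12.3. Its log2 fold change in co-culture was -0.19 and not called. Without library 1 it was -0.46 and called (adjusted p = 0.024), and it was not called at -0.06 without library 3 or 5, at -0.13 without library 6 and at -0.36 without both 1 and 5. Serpina3n was at 258, 9.50 and 8.32 in the same groups, and Serpina9 at 62.8, 2.14 and 4.45. Serpina3i was at 73.2 in Young and had 3 reads or fewer in each Old and Rejuvenated Old library. Serpina3c went the other way, at 4.78, 45.0 and 41.8, as did Serpinb9g (4.88 in Young, 25.4 in Old) and Serpind1 (5.71 and 26.7).

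**Figure D5:**
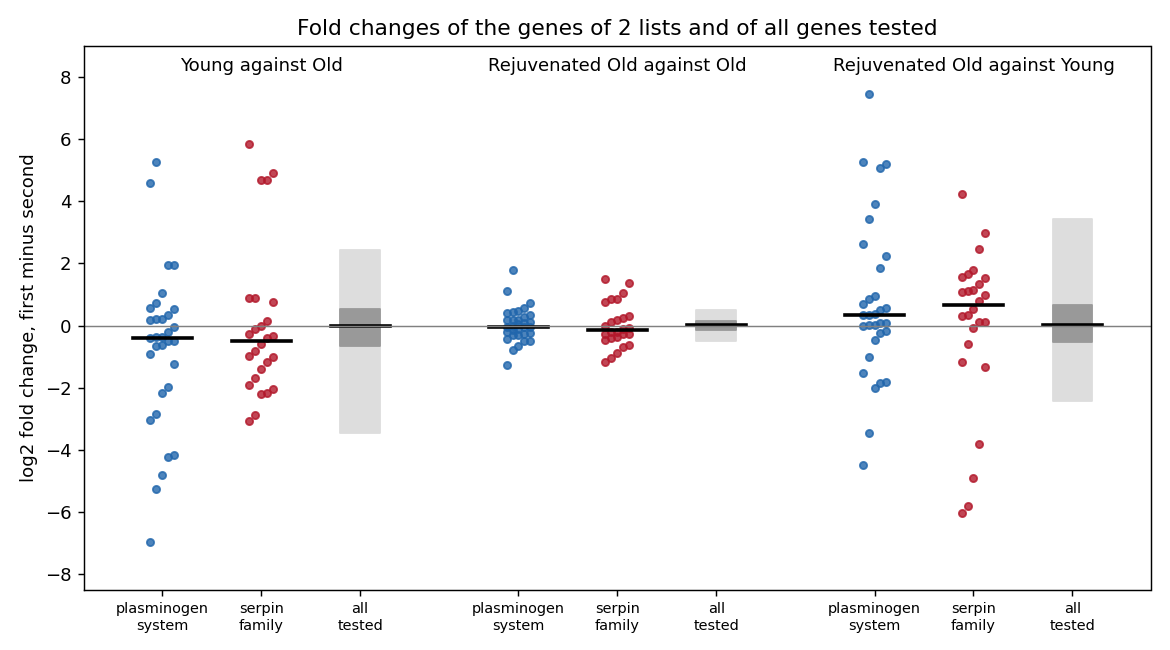
Log2 fold change of each tested gene in 3 comparisons, for the plasminogen system list (blue, 32 genes) and serpin family list (red, 26 genes). Black bars are medians, and grey boxes hold the middle 50% and 90% of all 14353 genes tested. Points of genes with few reads in a group depend on the value of 1 added before the logarithm. Among them are Itgam, Spint1, St14, Sorl1 and Klkb1 against Young, and the points of Spint2, Serpina9 and Serpina3i. The medians of the lists are -0.39 and -0.49 for Young against Old and -0.03 and -0.14 for Rejuvenated Old against Old.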

How the data were processed

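RNA was measured by TruSeq stranded mRNA sequencing in 18 libraries. The authors aligned reads to mm10 with HISAT2 and used StringTie, featureCounts and DESeq2, with versions, annotation and strand setting not given in the sources used here. The deposited signal values are normalized counts, that is, read counts divided by a size factor. Dividing by the step of each library gave whole reads for 100% of values (within 0.01 read). Values were tested as log2(normalized count + 1) with limma 3.58.1 (trend) in R 4.3.3, in 1 fit of all 3 groups, for 14353 genes with a mean of at least 10, with Benjamini-Hochberg adjustment over all of them and a call at an adjusted p under 0.05. The fits were tested on simulated data. edgeR 4.0.16 and DESeq2 1.42.0 on the recovered reads, other pseudocounts, filters and scalings were alternatives. Gene positions came from RefSeq (GRCm38.p6), matched by gene number for 25275 of 27179 genes, and transcript lengths from GENCODE through RefSeq-matched transcripts.

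The members and lists were chosen with earlier results of these data known. Named are the members, and from each list and comparison up to 8 called genes with the largest change whose groups did not overlap and the 3 most abundant genes. The 3 genes nearest in pattern to each member are also named. 1 gene that this rule selects is not reported here.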

Additional observations from a re-analysis of the deposited data

Results flagged for a closer look

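In 111 groups of 6 libraries (37 genes by 3 groups), 4 had a library far from the rest, measured as the gap to its nearest neighbour over the range of the group. Chance gives about 1 in 20. None was in a member. Eno1 in Old 2 was at 11756 normalized counts against 10718 to 11069 in the others (ratio 0.662), and Eno1 in Rejuvenated Old 6 was at 16555 against 18628 to 18973 (0.857). In Rejuvenated Old 1, Vldlr was at 689 against 390 to 476 (0.711), and Serpina3h was at 28.8 against 6.52 to 12.3 (0.742).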

How the results depend on the processing

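Less the chromosome median, a setting applied to the list genes after seeing the data, 4 of their 135 called values changed sign: for Young against Old those of Anxa2 (0.20 to -0.0014), Serpina3g (-0.27 to 0.19) and F2r (-0.22 to 0.08; named after its values were seen), and for Rejuvenated Old against Young that of Serpinb8 (0.32 to -0.37). Under the other alternatives no called value of a member or named list gene changed sign. The counts of called serpin family genes moved from 22, 14 and 23 (Young against Old, Rejuvenated Old against Old, Rejuvenated Old against Young) to 11, 9 and 12 with a mean of at least 50, which tests fewer genes. At an adjusted p under 0.01 the count in co-culture was 8. For Young against Old, the member fold changes moved by more than the spread between libraries in these settings. With every library scaled to the same total they were 1.35 for Plat, 1.98 for Plau and 0.34 for Serpinf1. With a pseudocount of 10 Serpinb2 was at -2.64. Less the chromosome median they were 1.13 for Plat, 1.72 for Plau, -0.65 for Plaur, -2.94 for Serpinb2 and -0.11 for Serpine2. Less the median of genes within 10 Mb, a setting chosen after seeing the data, they were 1.12, 1.79, -0.40, -2.74 and -0.28, and 0.36 for Serpinf1. For Rejuvenated Old against Young, the same total gave -1.60 for Plau, 0.20 for Plaur and -0.15 for Serpinf1, and a pseudocount of 10 gave 0.84 for Serpinb2. Less the chromosome median, Plat was at -1.93, Plau at -1.37, Plaur at 0.86, Serpinb2 at 0.73 and Serpine2 at -0.58, and less the median within 10 Mb Plat was at -1.90, Plaur at 0.57, Serpinb2 at 0.73, Serpine2 at -0.38 and Serpinf1 at -0.17. The cause was not tested. Over all genes tested, limma called 12297, 5971 and 12288 genes in the 3 comparisons, edgeR on recovered reads 12276, 6213 and 12298, and DESeq2 12259, 6345 and 12260. The side with more calls turned with every library scaled to the same total, from 5967 higher and 6330 lower to 6486 and 5823 for Young against Old, from 3016 and 2955 to 2699 and 3236 in co-culture, and from 6328 and 5960 to 5725 and 6606 for Rejuvenated Old against Young. It also turned with the same 75th percentile for Young against Old and for Rejuvenated Old against Young, and, in co-culture, without a filter, with DESeq2, at an adjusted p under 0.01 and without Rejuvenated Old 2 or 4. Leaving out each library in turn gave 5442 to 5995 in co-culture. A replicate block gave 12219, 5769 and 12210 genes. The labels' numbers mark no shared animal or day, correlations of same-numbered deviations from the group means ran from -0.15 to 0.07 in 18 pairs, and 1 of the 18 was highest at its own number. The co-culture call of Serpina3i, which had 3 reads or fewer in each library of both groups, was lost with a pseudocount of 10, without a filter, in the fit of 2 groups, with the replicate block, with edgeR, with DESeq2 and in 14 of 18 fits that left out a library. The Young against Old call of Serpina3g (-0.27) was lost with every library scaled to the same total (-0.19). It was also lost without Young 5 (-0.23), Young 6 (-0.19) or Old 6 (-0.23). Low read numbers limit Serpinb2 in Young and Serpinf2 in all groups.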
